A study of Mus musculus with 16 samples.

Results

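The 6 genes Ly6a, Ly6c1, Ly6e, Ly6h, Lynx1 and Lypd1 were chosen by name, with earlier results of these data known. All 6 were among the 19999 genes of the table. They were described in endothelial-like nuclei and in neurons of the medial prefrontal cortex, by single-nucleus RNA sequencing of 16 male mice aged 22 weeks. Groups held 4 mice each: B6;129 wild-type (WT) mice in air (WT control), WT mice with a history of intermittent alcohol vapor (WT alcohol), and 3xTg-AD mice under either condition. 3xTg-AD mice carry human APP and tau transgenes and a mutated presenilin 1 allele, and the transgenes are driven by the Thy1 promoter. The study's methods describe pyrazole, an inhibitor of alcohol dehydrogenase, as injected in alcohol and air groups alike, and an ethanol injection in the vapor group only. The strain label of the WT mice is the B6;129 background of the 3xTg-AD line. The study's discussion calls the WT controls littermates. The labels give no litter or breeding line of any mouse, so that genotype and breeding line cannot be told apart from them.

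The Ly6/uPAR family comprises small proteins with a three-finger fold, most of them held at the cell surface by a lipid (GPI) anchor. Some members, among them Ly6a (Sca-1) and Ly6c1, are used as surface markers of endothelial and blood cells in mice. Others, among them Lynx1, Ly6h and Lypd1 (Lynx2), are made by neurons and bind nicotinic acetylcholine receptors, whose currents they modulate.

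The table held 114512 nuclei, with 4955 to 9096 nuclei and 9622031 to 17544364 unique molecular identifiers (UMIs) per mouse. Nuclei were grouped by clustering without any of the family's genes and named from marker genes, which left 38231 nuclei (33.4%) in clusters without a name. The endothelial-like class held 653 nuclei, 21 to 69 per mouse, with 38661 to 131927 UMIs per mouse. Glutamatergic and GABAergic classes held 47256 and 9788 nuclei. Barcodes shared by more than 1 library numbered 1694, borne by 3400 nuclei. WT control mice 26 and 27 and 3xTg-AD control mouse 12 stood apart, with the rRNA-associated transcript Gm42418 at 17914 counts per 1000000 UMIs (CPM) or more against 4250 CPM or less in the other 13 mice, and calls of named genes are given with and without them. WT control mouse 27 also held 950 nuclei named as Meis2/olfactory GABAergic, against 88 or fewer in each other mouse. Whether its tissue sample differed was not tested. Thy1, whose promoter drives the transgenes, was at 153 to 279 CPM in the 8 WT mice and at 194 to 359 CPM in the 8 3xTg-AD mice, so that it did not separate the genotypes.

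Of the 6 genes, 5 lie on chromosome 15 (mm10/GRCm38) within a span of 819404 bases from Lynx1 (74747852 to 74753046, minus strand) through Ly6e (74955051 to 74959905, plus strand), Ly6a (74994877 to 74998031, minus strand) and Ly6c1 (75044018 to 75048830, minus strand) to Ly6h (75551268 to 75567255, minus strand). Lypd1 lies on chromosome 1 (125867622 to 125913101, minus strand) and overlaps Gpr39 on the opposite strand. Near-identical copies limit the count of Ly6c1: 29.4% of the 50-base words in the last 400 bases of its coding transcripts also occur in Ly6a, Ly6c2 or Ly6i. For Ly6a the share was 9.27%, and for the other 4 genes it was 0. Ly6a and Ly6c1 counts are therefore uncertain to the extent that reads were split between copies or left out.

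RefSeq promoters of 2 of the 6 genes were at hand (build GRCm38.p6), and the 250 bases before the start site are shown as those of 1 member that was highest in endothelial-like nuclei, Ly6c1, and 1 that was highest in L5/6 NP neurons, Lypd1. Capitals mark matches, on either strand, to the letters TATAAA, TTCNNNGAA or CCGGAA or to the interferon-stimulated response element.
Ly6c1: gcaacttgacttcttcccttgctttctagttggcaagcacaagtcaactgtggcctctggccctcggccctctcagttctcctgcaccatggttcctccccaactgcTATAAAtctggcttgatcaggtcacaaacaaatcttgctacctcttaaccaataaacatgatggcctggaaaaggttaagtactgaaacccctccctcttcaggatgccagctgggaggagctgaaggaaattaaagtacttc
Lypd1: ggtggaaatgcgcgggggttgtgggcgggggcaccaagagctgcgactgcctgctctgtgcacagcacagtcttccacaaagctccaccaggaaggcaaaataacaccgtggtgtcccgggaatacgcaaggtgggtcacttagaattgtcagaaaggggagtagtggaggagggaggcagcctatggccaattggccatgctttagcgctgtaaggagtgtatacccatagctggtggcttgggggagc
The Ly6c1 run is chr15:75048838-75049087 on the minus strand and the Lypd1 run chr1:125912929-125913178 on the minus strand. The Lypd1 start used was 1 of 3 and lies 173 bases inside the annotated 5′ end, so that part of its run falls within the gene span given above. TATAAA, searched only after this run had been read, occurred once before Ly6c1 and is found in 12.4% of 32851 promoters of that length. The interferon-stimulated response element (2.98% of promoters), the gamma-activated site letters TTCNNNGAA (7.02%) and the ETS core CCGGAA (12%) were not found in either run. Such a match is a description of the letters only.

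Ly6a, Ly6c1 and Ly6e were highest in endothelial-like nuclei, the cells that line vessels. Ly6c1 was at 1489 ± 457 CPM (SD, n = 16 mice), Ly6e at 581 ± 169 CPM and Ly6a at 549 ± 293 CPM. In each of the 16 mice all 3 were higher in endothelial-like than in glutamatergic and in GABAergic nuclei. The mean log2 ratio over glutamatergic nuclei was 9.71 ± 0.66 for Ly6c1, 9.37 ± 0.61 for Ly6a and 2.76 ± 0.46 for Ly6e (SD over mice). These ratios are descriptions of a cell class, with no test. CPM does not correct for gene length, so levels are compared within a gene.

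The next class after endothelial-like nuclei was far lower for Ly6a and Ly6c1, and less so for Ly6e. Pericyte/mural-like nuclei held 23.4 ± 38.5 CPM of Ly6a and 23.2 ± 50.04 CPM of Ly6c1 (12 mice), and microglia-like nuclei held 207 ± 62.0 CPM of Ly6e. Below these, neighbours in the order of classes lay within 1 SD of each other for Ly6a and Ly6c1. For Ly6e the same held, except that OPC-like nuclei (78.2 ± 17.7 CPM) exceeded GABAergic nuclei (58.3 ± 12 CPM) by more than 1 SD.

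Counts of Ly6a and Ly6c1 in neurons were near those in astrocyte-like nuclei, which should lack both genes. Ly6a had 115 UMIs in 47256 glutamatergic nuclei, 0.237% of which held one, against 41.3% of the 653 endothelial-like nuclei (exact 95% interval 37.5% to 45.2%). Astrocyte-like nuclei gave 0.286%, at a median of 1206 UMIs per nucleus against 2473 in glutamatergic nuclei. After thinning each nucleus to 500 UMIs, which left no nucleus out, the shares were 17.8% in endothelial-like and 0.0550% in glutamatergic nuclei. Intervals cover counting error only. Per 100 UMIs of the 16 endothelial markers, Ly6a gave 1.92 in glutamatergic, 1.69 in astrocyte-like and 6.09 in endothelial-like nuclei. Ly6c1 had a UMI in 0.514% of glutamatergic, 0.501% of GABAergic and 0.493% of astrocyte-like nuclei against 62.9% of endothelial-like nuclei, and per 100 marker UMIs it gave 4.2, 5.79, 3.07 and 17.2 in that order. Sst nuclei had the highest share among neuron types, 1.13% (exact 95% interval 0.709% to 1.7%), above that of astrocyte-like nuclei (0.349% to 0.676%). After thinning these were 0.308% (0.113% to 0.669%) and 0.182% (0.0994% to 0.305%), whose intervals overlap. Sst nuclei were then no longer highest, with L5/6 NP nuclei at 0.317% (0.128% to 0.653%).

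**Figure D1:**
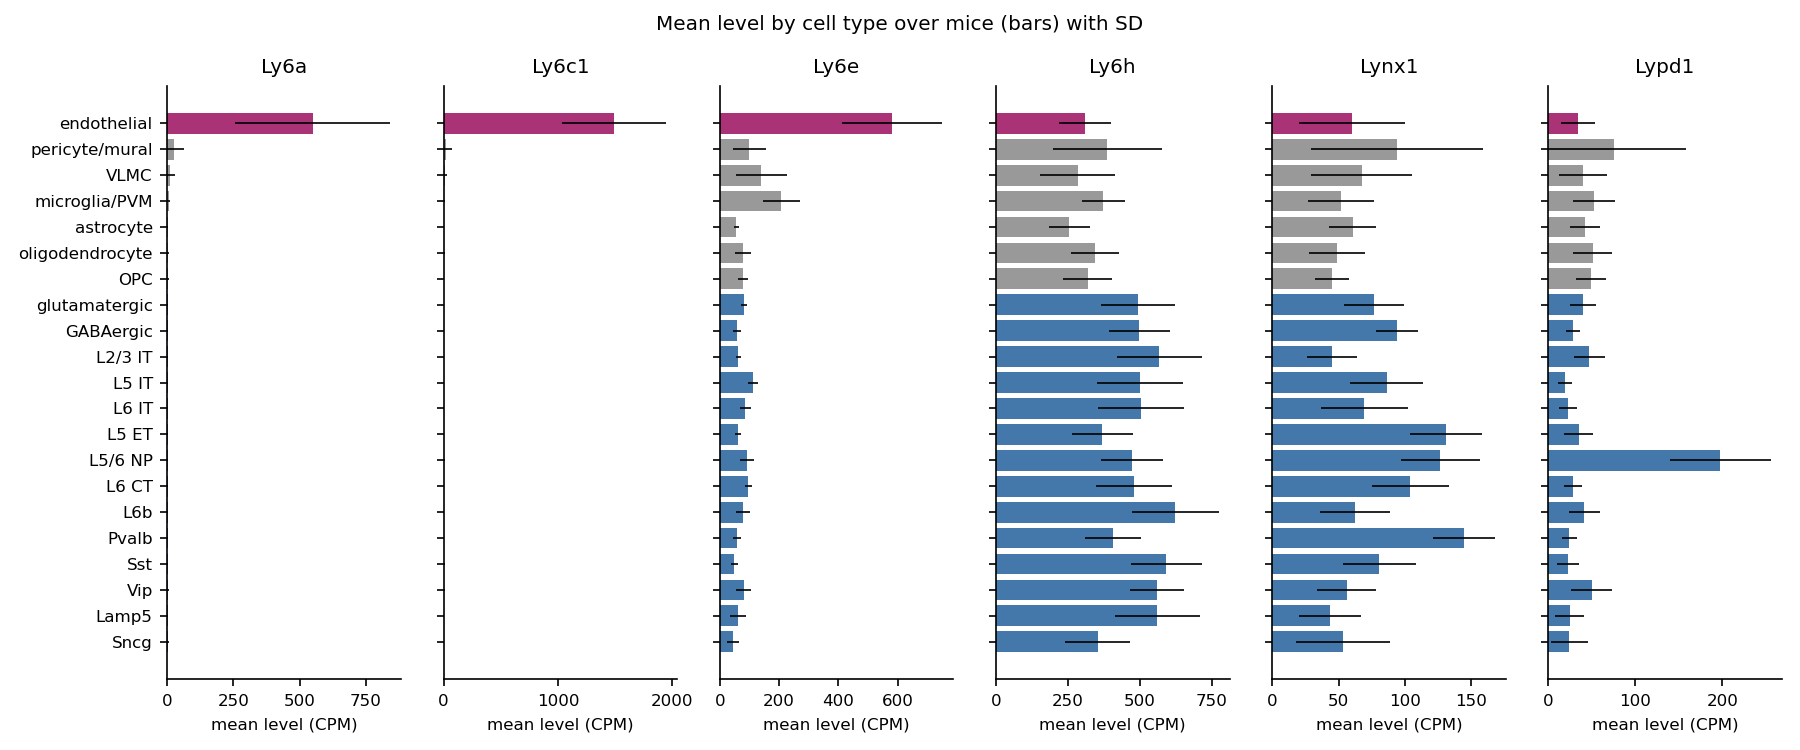
Mean level in CPM (x axis, one panel per gene) in 21 nuclear classes and types (y axis), with bars for the mean over mice with at least 10 nuclei and lines for the SD; endothelial-like nuclei are purple, other non-neuronal classes gray and neurons blue. Ly6a, Ly6c1 and Ly6e peak in endothelial-like nuclei (549, 1489 and 581 CPM) and Lypd1 in L5/6 NP nuclei (198 CPM).

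Ly6h, Lynx1 and Lypd1 did not peak in endothelial-like nuclei. Ly6h was at 498 ± 106 CPM in GABAergic and 493 ± 128 CPM in glutamatergic nuclei against 309 ± 91.6 CPM in endothelial-like nuclei, and lower in the latter than in GABAergic nuclei in every mouse. In glia it was at 255 to 372 CPM. Glutamatergic markers were also counted in those nuclei: per 100 UMIs of the 7 glutamatergic markers, Ly6h gave 10.6 to 14.8 in the 7 non-neuronal classes, 20.4 in glutamatergic and 38.3 in GABAergic nuclei. The part of neuronal RNA in the glial counts was not tested. Within neurons Ly6h ran from 353 ± 114 CPM in Sncg to 623 ± 150 CPM in L6b nuclei, with each neighbour in the order within 1 SD.

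Lynx1 was highest in Pvalb interneurons (144 ± 23.3 CPM), followed by L5 ET (131 ± 26.9 CPM) and L5/6 NP nuclei (127 ± 29.6 CPM), neighbours that did not differ beyond their spread. Among neuron types the lowest levels were in Lamp5 (43.7 ± 23.2 CPM) and L2/3 IT nuclei (45.2 ± 18.7 CPM), near those of oligodendrocyte-like (48.6 ± 21.2 CPM) and OPC-like nuclei (45.1 ± 13 CPM). Lypd1 peaked in L5/6 NP nuclei, the near-projecting neurons of deep layers, at 198 ± 58.1 CPM, beyond the spread of the next neuron type, Vip (49.8 ± 23.6 CPM). Over whole classes Lypd1 did not separate neurons from other nuclei. It was at 40.3 ± 14.8 CPM in glutamatergic and 28.4 ± 8.52 CPM in GABAergic nuclei, against 75.7 ± 82.7 CPM in pericyte/mural-like, 52.4 ± 24.2 CPM in microglia-like, 50.9 ± 22.5 CPM in oligodendrocyte-like and 34.1 ± 19.7 CPM in endothelial-like nuclei, and neighbours in the order of classes lay within 1 SD of each other. Pericyte/mural-like nuclei held 17 UMIs of Lypd1 in all. Per 100 UMIs of the 7 glutamatergic markers, Lypd1 gave 1.28 to 2.25 in the 7 non-neuronal classes, 1.65 in glutamatergic and 2.13 in GABAergic nuclei. Lynx1 gave 1.75 to 3.26, 3.19 and 7.27 in that order. The part of neuronal RNA in the non-neuronal counts of both genes was not tested. The mean log2 ratio of endothelial-like over glutamatergic nuclei was -0.69 ± 0.44 for Ly6h, -0.51 ± 0.91 for Lynx1 and -0.25 ± 0.78 for Lypd1 (SD over 16, 15 and 15 mice).

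Genes most like each member were ranked by Pearson's r of log2(CPM + 1) over the 21 classes and types among 11922 genes, as a description, since points share libraries and depth. They were Foxq1 (r = 0.97), Adgrf5 and Hbb-bs for Ly6a, Hbb-bt (r = 0.96), Adgrl4 and Ctla2a for Ly6c1, and Gimap6 (r = 0.92), Rap1b and Smagp for Ly6e. For the other 3 members they were Atp2c1 (r = 0.89), Dvl2 and Gm20642 for Ly6h, Casz1 (r = 0.83), D5Ertd579e and Ahr for Lynx1, and Grp (r = 0.86), Myl4 and Kremen1 for Lypd1.

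The comparison of 3xTg-AD alcohol with WT control mice asked how the combination of genotype and alcohol differed from neither. Counts were summed per mouse and type and tested with edgeR's quasi-likelihood test, calling an adjusted p of at most 0.05 (Benjamini-Hochberg over all genes of a type). Over 69 pairs of gene and type that passed the filter on low counts, 6 were called, all higher, against 1.44% of all gene tests in these 19 types. The 6 pairs are not independent, since the L2/3 IT and Sst types lie within the glutamatergic and GABAergic classes. The study had already reported Ly6a and Ly6c1 as upregulated in endothelial cells in this comparison. The members were chosen with such results known, so that counts of calls among them are descriptions here and below.

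Ly6a rose in endothelial-like nuclei of 3xTg-AD alcohol mice. WT control mice 26, 27, 28 and 36 were at 281, 202, 434 and 321 CPM, WT alcohol mice 6, 7, 17 and 18 at 377, 406, 429 and 455 CPM, 3xTg-AD control mice 12, 13, 14 and 21 at 448, 533, 615 and 470 CPM, and 3xTg-AD alcohol mice 4, 31, 33 and 34 at 702, 862, 858 and 1397 CPM. The 3xTg-AD alcohol mice lay above the WT control mice, groups that did not overlap for 5.69% of the genes tested in these nuclei. Mouse 34 was highest, with 54 UMIs of Ly6a in 21 nuclei. The log2 fold change over WT control was 1.64 ± 0.23 (SE), a 3.11-fold difference (edgeR adjusted p = 4.77e-07), where 1.12% of the 1967 genes tested in these nuclei were called. Over all nuclei, endothelial-like ones included, it was 1.15 ± 0.20 (edgeR adjusted p = 0.00416). At far lower levels, the mean was also higher in microglia-like (12 against 3.77 CPM), astrocyte-like (3.39 against 0.60 CPM), glutamatergic (1.44 against 0.66 CPM) and GABAergic nuclei (2.39 against 0.79 CPM). Of these classes Ly6a passed the filter on low counts only in glutamatergic nuclei, where it was not called. It was not tested in the others. The mean was lower in L5 ET, L5/6 NP and Vip nuclei, which held 7, 5 and 3 UMIs of Ly6a over all mice, so that no direction is read.

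Ly6c1 and Ly6e rose in the same nuclei. Ly6c1 was at 955, 982, 1253 and 1349 CPM in WT control mice and at 2537, 1591, 1633 and 2328 CPM in 3xTg-AD alcohol mice, without overlap, and 1338 to 1768 CPM in WT alcohol and 770 to 1622 CPM in 3xTg-AD control mice lay between and across them. Its log2 fold change over WT control was 0.85 ± 0.20 (edgeR adjusted p = 0.0124). Ly6e was at 440, 283, 530 and 501 CPM in WT control mice and at 662, 906, 803 and 854 CPM in 3xTg-AD alcohol mice, also without overlap. WT alcohol mice were at 583, 573, 470 and 682 CPM and 3xTg-AD control mice at 434, 399.8, 597 and 584 CPM, and WT alcohol mouse 18 lay above 3xTg-AD alcohol mouse 4. The log2 fold change of Ly6e over WT control was 0.90 ± 0.22 (edgeR adjusted p = 0.0138). Groups did not overlap for 5.69% of the genes tested in endothelial-like nuclei. Ly6h, the fourth member tested there, had a log2 fold change of -0.01 ± 0.28 (edgeR adjusted p = 0.988).

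**Figure D2:**
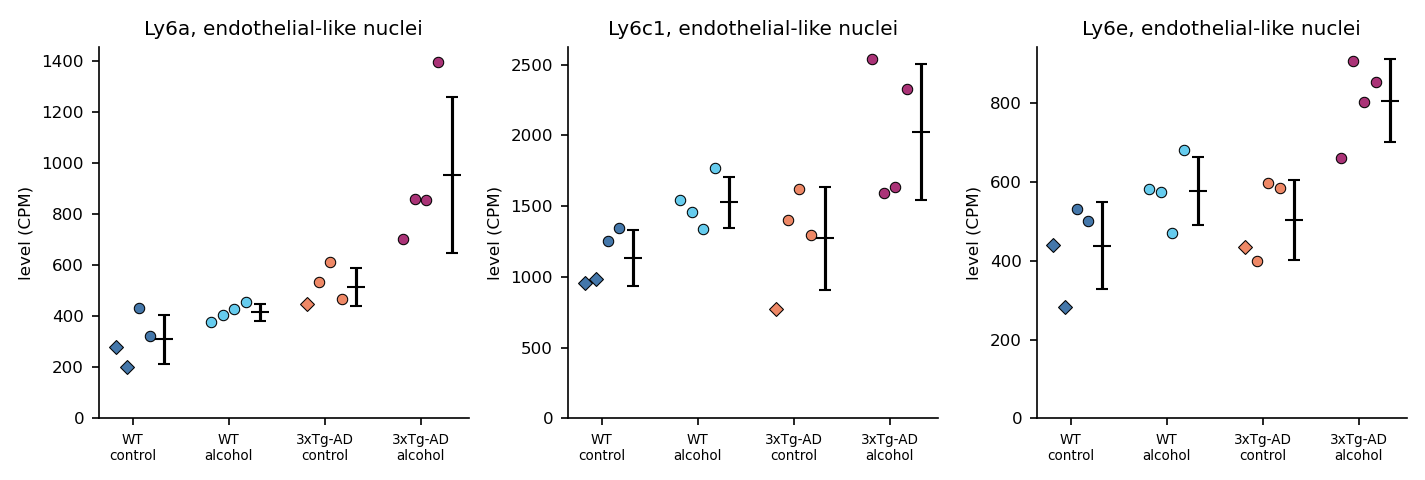
Level of Ly6a, Ly6c1 and Ly6e in CPM (y axis, from 0) in endothelial-like nuclei of each mouse in the 4 groups (x axis); points are mice, diamonds the 3 mice with a high level of Gm42418, and bars the mean ± SD. The 3xTg-AD alcohol mice lie above the WT control mice in all 3 panels, from 702 to 1397 CPM against 202 to 434 CPM for Ly6a.

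Ly6a was also called when the groups were compared by genotype, and was the only 1 of the 69 pairs called between 3xTg-AD alcohol and WT alcohol mice (0.459% of all gene tests). Against WT alcohol mice the log2 fold change of 3xTg-AD alcohol mice was 1.22 ± 0.22 (edgeR adjusted p = 0.000389, 0.458% of genes called), and averaged over treatment 3xTg-AD exceeded WT by 0.997 ± 0.17 (edgeR adjusted p = 5.66e-05, 0.712% of genes called). 3xTg-AD alcohol against 3xTg-AD control mice gave 0.87 ± 0.22 (edgeR adjusted p = 0.0878), 3xTg-AD control against WT control mice 0.77 ± 0.25 (adjusted p = 0.559), and WT alcohol against WT control mice 0.41 ± 0.25 (adjusted p = 0.948). The interaction of genotype and alcohol was 0.46 ± 0.34 (adjusted p = 0.997), so that a difference in the alcohol effect between genotypes was not shown.

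Without the 3 mice with a high level of Gm42418, Ly6a still passed over WT control (log2 fold change 1.40 ± 0.29, edgeR adjusted p = 0.00202, 13 mice), over WT alcohol (1.21 ± 0.22, adjusted p = 6.03e-05) and by genotype (0.88 ± 0.19, adjusted p = 0.00509), whereas Ly6c1 (0.70 ± 0.25, adjusted p = 0.304) and Ly6e (0.72 ± 0.27, adjusted p = 0.341) did not. With the rRNA-associated share as a covariate, Ly6a passed (1.45 ± 0.32, adjusted p = 0.00816), and Ly6c1 (0.47 ± 0.27, adjusted p = 0.717) and Ly6e (0.74 ± 0.30, adjusted p = 0.424) did not. Without a filter on low counts Ly6c1 (adjusted p = 0.0714) and Ly6e (0.134) did not pass either. Ly6a also passed with any 1 mouse left out. Ly6c1 did not pass without WT control mouse 26 (adjusted p = 0.0939), WT control mouse 27 (0.0522) or 3xTg-AD alcohol mouse 4 (0.0972), nor Ly6e without WT control mouse 27 (0.139) or 3xTg-AD alcohol mouse 33 (0.0566). When nuclei were classed by their counts of endothelial markers instead of by cluster, 220 nuclei remained, 13 mice with at least 10 nuclei entered the fit with 5 to 16 UMIs of Ly6a each, and none of the 3 was called: Ly6a was at 0.62 ± 0.38 (edgeR adjusted p = 0.628), Ly6c1 at 0.20 ± 0.28 (0.898) and Ly6e at 0.37 ± 0.36 (0.79). Nor was Ly6a then called against WT alcohol mice (0.43 ± 0.40, adjusted p = 0.919) or by genotype (0.26 ± 0.28, adjusted p = 0.83). WT alcohol mouse 17, 3xTg-AD control mouse 12 and 3xTg-AD alcohol mouse 34 had fewer than 10 such nuclei and did not enter. Mouse 34 was again highest for Ly6a, at 1585 CPM in 7 nuclei, and 3 mice of its group remained. The part of the changed set of mice in these values was not tested.

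Markers were measured beside this result. The summed level of the 16 endothelial markers was 5261 to 9570 CPM in WT control, 5884 to 10150 CPM in WT alcohol, 7700 to 11420 CPM in 3xTg-AD control and 7899 to 14050 CPM in 3xTg-AD alcohol mice. Relative to it, Ly6a was at 3.36 to 5.71 UMIs per 100 marker UMIs in WT control and 8.83 to 10.9 in 3xTg-AD alcohol mice, without overlap, while Ly6c1 (11.7 to 18.7 against 16.6 to 31.9) and Ly6e (5.23 to 6.98 against 6.08 to 11.5) overlapped. The share of all genes without overlap was not taken for this ratio, so that it is a description. Other cells' markers were present: the 11 pericyte/mural markers summed to 821 to 1910 CPM in WT control and 1569 to 3000 CPM in 3xTg-AD alcohol mice, the 11 astrocyte markers to 1736 to 3186 and 2200 to 3049 CPM, and the 7 glutamatergic markers to 2482 to 3540 and 2302 to 2707 CPM. Of the VLMC, microglia and oligodendrocyte lists, Col3a1, Dock8 and St18 had no UMI in these nuclei. Sums were also taken over 5 venous and 5 arterial markers, chosen after values had been seen. The venous markers were at 48.2 to 159 CPM in WT control, 23.9 to 263 CPM in WT alcohol, 50.8 to 533 CPM in 3xTg-AD control and 90.2 to 440 CPM in 3xTg-AD alcohol mice. The arterial markers were at 0 to 152, 71.7 to 354, 0 to 112 and 41.5 to 451 CPM in the same order. The part of these markers in the result was not tested.

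Of the genes that respond to interferon or present antigen, 7 were tested in endothelial-like nuclei and 5 were higher in 3xTg-AD alcohol than in WT control mice, where 0.915% of all genes tested were called higher. The median log2 fold change of the 7 was 1.57, against 0.01 over all genes tested. Ifitm3, a restriction factor of virus entry, rose by 2.10 ± 0.40 (adjusted p = 0.0124), and Ifitm2, its relative, by 1.60 ± 0.40 (adjusted p = 0.0159), both by edgeR. The MHC class I heavy chains H2-K1 and H2-D1 rose by 1.71 ± 0.30 and 1.57 ± 0.28 (adjusted p = 0.000105 for both), and B2m, their light chain, by 1.47 ± 0.27 (adjusted p = 0.000178), also by edgeR. Without the 3 mice high in Gm42418, 3 of the 5 were called by edgeR, where 0.415% of 2649 genes tested were called higher. They were Ifitm3 (1.86 ± 0.41, adjusted p = 0.0132), H2-K1 (1.67 ± 0.40, adjusted p = 0.0123) and H2-D1 (1.53 ± 0.36, adjusted p = 0.0115). B2m (1.22 ± 0.35, adjusted p = 0.0987) and Ifitm2 (1.815 ± 0.57, adjusted p = 0.197) were not called. All 5 were called without 3xTg-AD alcohol mouse 34 (adjusted p of 0.000838 to 0.0313). Among 19 blood-brain barrier genes tested, Bsg, a surface glycoprotein, rose (0.92 ± 0.19, edgeR adjusted p = 0.00174, and 1.02 ± 0.24, adjusted p = 0.0123, without the 3 mice), and the median was 0.20. None of 3 vessel activation genes passed. All lists were chosen with earlier results known, so that their counts are descriptions.

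Genes of the same lists were also called in neurons, at low levels. Of 22 interferon and antigen presentation genes tested in glutamatergic nuclei, 5 were called higher in 3xTg-AD alcohol than in WT control mice, against 1.31% of all genes called higher. Ifitm3 was at 1.9, 1.01, 0.711 and 1.28 CPM in WT control and 2.51, 4.67, 6.54 and 9.33 CPM in 3xTg-AD alcohol mice (log2 fold change 2.16 ± 0.41, edgeR adjusted p = 0.0067), and was still called without the 3 mice (adjusted p = 0.0146) and without 3xTg-AD alcohol mouse 34 (0.0293). A UMI of Ifitm3 was found in 0.739% of glutamatergic nuclei, less than in astrocyte-like (1.73%) and near that in oligodendrocyte-like nuclei (0.785%), against 30.3% of endothelial-like nuclei, at medians of 2473, 1206, 889 and 1194 UMIs per nucleus. No expression in neurons is read from such a share, and the part of RNA from other cells was not tested. H2-K1 (1.20 ± 0.31, adjusted p = 0.0393), B2m (0.68 ± 0.18, adjusted p = 0.0408), Bst2, a tether of budding virus (2.81 ± 0.67, adjusted p = 0.0316), and Oasl2 (6.46 ± 1.66, adjusted p = 0.0487) were not called without the 3 mice (adjusted p of 0.0606 to 0.203), nor without 3xTg-AD alcohol mouse 34 (0.0556 to 0.12). In that order they were at 1.40 ± 0.40, 0.57 ± 0.18, 2.80 ± 0.98 and 7.13 ± 2.80 without the 3 mice. They were at 0.93 ± 0.30, 0.56 ± 0.18, 1.66 ± 0.45 and 3.67 ± 0.95 without 3xTg-AD alcohol mouse 34. That mouse, which holds most of an interferon-led cluster described last, had 37.7 CPM of Oasl2 against 0.193, 1.93 and 2.59 CPM in the other 3xTg-AD alcohol mice and 0.238 CPM or less in WT control mice. For Bst2 it had 20.6 CPM against 1.35, 4.16 and 5.18 CPM. Bsg was called in glutamatergic (0.45 ± 0.12, edgeR adjusted p = 0.0412, 3.72% of genes called) and GABAergic nuclei (0.51 ± 0.13, adjusted p = 0.0338, 1.75% of genes called). It was not called without the 3 mice (0.192 and 0.219) or without 3xTg-AD alcohol mouse 34 (0.0635 and 0.0568). By genotype Slc7a5, an amino acid transporter, was higher in GABAergic nuclei of 3xTg-AD mice (1.13 ± 0.23, edgeR adjusted p = 0.00969, 1.7% of genes called, and adjusted p = 0.013 without the 3 mice). Its means were 14.2 CPM in WT control, 15.6 CPM in WT alcohol, 30.8 CPM in 3xTg-AD control and 35.1 CPM in 3xTg-AD alcohol mice. The part of RNA from other cells in the neuronal counts of Bsg and Slc7a5 was not tested. Cd74, the invariant chain of MHC class II, was called by genotype in glutamatergic nuclei (edgeR adjusted p = 0.0394, 2.91% of genes called), but not without the 3 mice (0.176). Its group means were 1.36 CPM or less, and a UMI was found in 0.197% of these nuclei. That share was below the 0.324% of astrocyte-like nuclei, so that no expression of Cd74 is read. Without 3xTg-AD alcohol mouse 34 its adjusted p was 0.0619. Of the rRNA-associated transcripts, AY036118 was lower in 3xTg-AD alcohol than in WT control mice in endothelial-like (-0.88 ± 0.22), glutamatergic (-0.80 ± 0.16) and GABAergic nuclei (-0.78 ± 0.16), with an edgeR adjusted p of 0.0158, 0.00875 and 0.00679, and without the 3 mice of 0.567, 0.0314 and 0.0915. In these classes 1.12%, 3.72% and 1.75% of genes were called between those groups. No statement about a list is read from single genes such as Bsg, Slc7a5, Cd74 or AY036118.

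Ly6h rose in GABAergic neurons of 3xTg-AD alcohol mice. In GABAergic nuclei WT control mice 26, 27, 28 and 36 were at 243, 361, 457 and 506 CPM and 3xTg-AD alcohol mice 4, 31, 33 and 34 at 640, 581, 644 and 502 CPM, and 3xTg-AD alcohol mouse 34 lay below WT control mouse 36. WT alcohol mice were at 535, 632, 490 and 559 CPM and 3xTg-AD control mice at 416, 471, 512 and 426 CPM. The log2 fold change was 0.57 ± 0.14 (edgeR adjusted p = 0.0256, where 1.75% of genes were called). It was 0.62 ± 0.15 in Sst interneurons (edgeR adjusted p = 0.0192, 0.546% of genes called) and 0.70 ± 0.17 in L2/3 IT neurons (edgeR adjusted p = 0.0271, 3.09% of genes called). In glutamatergic nuclei as a whole it was 0.65 ± 0.20 (edgeR adjusted p = 0.0689, 3.72% of genes called), which DESeq2 called. Without the 3 mice high in Gm42418, none of these passed: GABAergic nuclei gave 0.34 ± 0.14 (adjusted p = 0.206), Sst 0.52 ± 0.17 (adjusted p = 0.198) and L2/3 IT 0.43 ± 0.14 (adjusted p = 0.103). With the rRNA-associated share as a covariate the adjusted p was 0.324, 0.211 and 0.412 in the same order, and with classes by marker counts it was 0.13 in GABAergic nuclei. Without WT control mouse 26 alone, the 3 adjusted p-values were 0.108, 0.112 and 0.0643, and without 3xTg-AD alcohol mouse 4 or 33 it was 0.0646 to 0.0853 in all 3. Ly6h in L2/3 IT neurons did not pass either when WT control mouse 27 was left out, or 3xTg-AD alcohol mouse 31 (adjusted p = 0.0572 and 0.0678), nor in Sst interneurons when WT control mouse 27, WT control mouse 28 or 3xTg-AD alcohol mouse 34 was (0.0593, 0.0729 and 0.0851).

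Averaged over genotype, Ly6h was higher in alcohol than in air mice in Sst interneurons and Lypd1 in L5/6 NP neurons, and 3 of the 69 pairs were called, all higher, against 1.06% of all gene tests. In Sst nuclei Ly6h was at 369, 422, 475 and 588 CPM in WT control, 682, 697, 622 and 620 CPM in WT alcohol, 502, 529, 580 and 459 CPM in 3xTg-AD control and 763, 643, 765 and 747 CPM in 3xTg-AD alcohol mice. All 8 alcohol mice lay above all 8 air mice, as for 2 of 5860 genes in either direction (0.0341%). The log2 fold change was 0.48 ± 0.11 (edgeR adjusted p = 0.0106, 0.785% of genes called), and 0.44 ± 0.11 (adjusted p = 0.0444) without the 3 mice high in Gm42418, but with the rRNA-associated share as a covariate it was not called (0.42 ± 0.13, adjusted p = 0.146). Ly6h was also called in GABAergic nuclei (0.42 ± 0.10, edgeR adjusted p = 0.0197, 1.88% of genes called), but not without those mice (0.30 ± 0.09, adjusted p = 0.0613), with the covariate (0.24 ± 0.11, adjusted p = 0.259), with classes by marker counts (0.39 ± 0.12, adjusted p = 0.191), without WT alcohol mouse 18 (0.0533) or without 3xTg-AD control mouse 21 (0.0505).

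Lypd1 in L5/6 NP nuclei was at 81.5, 134, 153 and 191 CPM in WT control, 232, 286, 240 and 243 CPM in WT alcohol, 154, 187, 159 and 144 CPM in 3xTg-AD control and 288, 199, 228 and 247 CPM in 3xTg-AD alcohol mice. Again all 8 alcohol mice lay above all 8 air mice, as for 0.156% of 6418 genes. The log2 fold change was 0.65 ± 0.14 (edgeR adjusted p = 0.0161, 0.265% of genes called), and it was not called without the 3 mice high in Gm42418 (0.55 ± 0.15, adjusted p = 0.0730) or with the covariate (0.49 ± 0.17, adjusted p = 0.276). Without WT control mouse 26 the adjusted p was 0.0558, and DESeq2 gave no adjusted p.

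**Figure D3:**
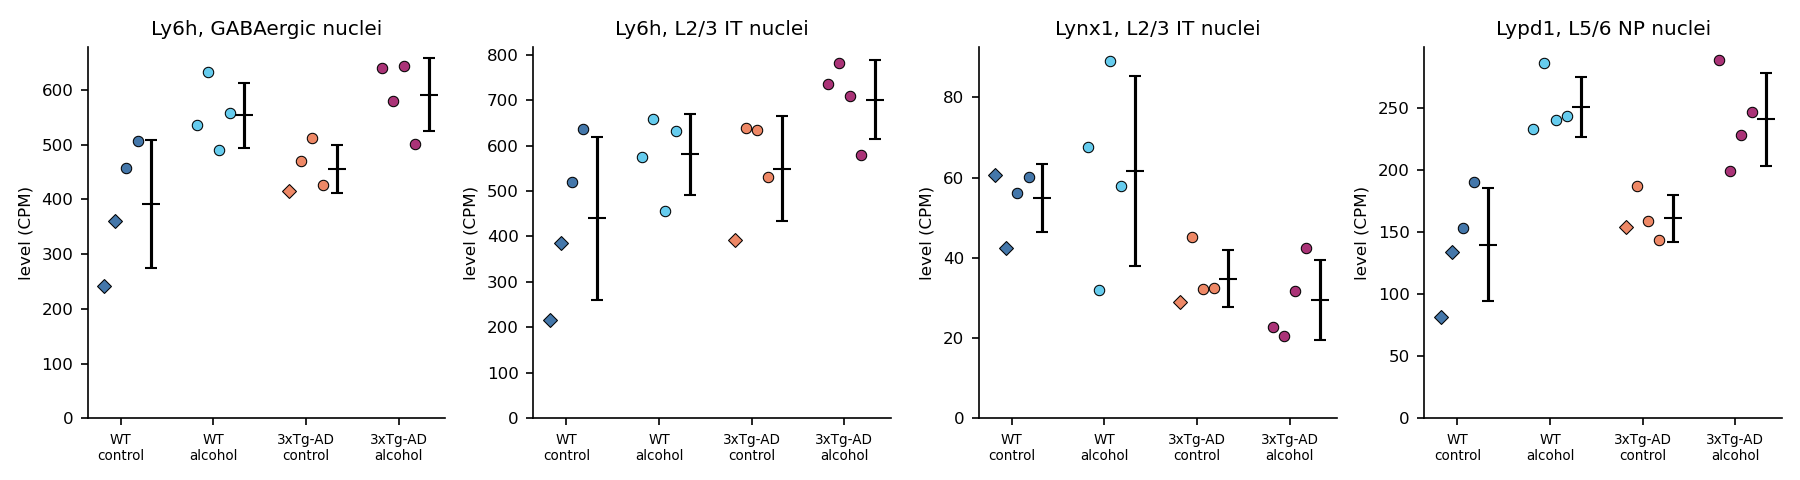
Level in CPM (y axis, from 0) of Ly6h in GABAergic and L2/3 IT nuclei, Lynx1 in L2/3 IT nuclei and Lypd1 in L5/6 NP nuclei for each mouse in the 4 groups (x axis); diamonds are the 3 mice with a high level of Gm42418 and bars the mean ± SD. Lypd1 separates the 8 alcohol mice (199 to 288 CPM) from the 8 air mice (81.5 to 191 CPM).

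Lynx1 was lower in 3xTg-AD than in WT mice in L2/3 IT neurons, 1 of 2 pairs called for genotype averaged over treatment (1.2% of all gene tests). WT control mice were at 60.7, 42.4, 56.2 and 60.1 CPM, WT alcohol mice at 67.7, 32.0, 89.1 and 57.8 CPM, 3xTg-AD control mice at 29.0, 45.1, 32.3 and 32.6 CPM and 3xTg-AD alcohol mice at 22.7, 20.6, 31.8 and 42.5 CPM. The genotypes overlapped, with WT control mouse 27 and WT alcohol mouse 7 among the 3xTg-AD values. The log2 fold change averaged over treatment was -0.92 ± 0.20 (edgeR adjusted p = 0.0235, 2.13% of genes called). It was below 0 in each of the 15 types tested, from -0.99 to -0.02, with 1 called; the types share mice and libraries. Without the 3 mice high in Gm42418 it was -0.86 ± 0.27 (adjusted p = 0.174), with the covariate -0.85 ± 0.24 (adjusted p = 0.0950), and leaving out any of 6 single mice gave an adjusted p of 0.0509 to 0.0561.

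In glutamatergic nuclei the 3 mice with a high level of Gm42418 held the lowest levels of Ly6h, and 2 of them the lowest levels of Lypd1. Ly6h was at 191 CPM in WT control mouse 26, 345 CPM in WT control mouse 27 and 333 CPM in 3xTg-AD control mouse 12, against 392 to 656 CPM in the other 13 mice. Lypd1 was at 10.2, 23.01 and 32.6 CPM in these mice, against 28.9 to 74.0 CPM in the others. For the called pairs, fits without these mice and with the rRNA-associated share as a covariate are given above. What links this transcript to the levels was not tested.

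**Figure D4:**
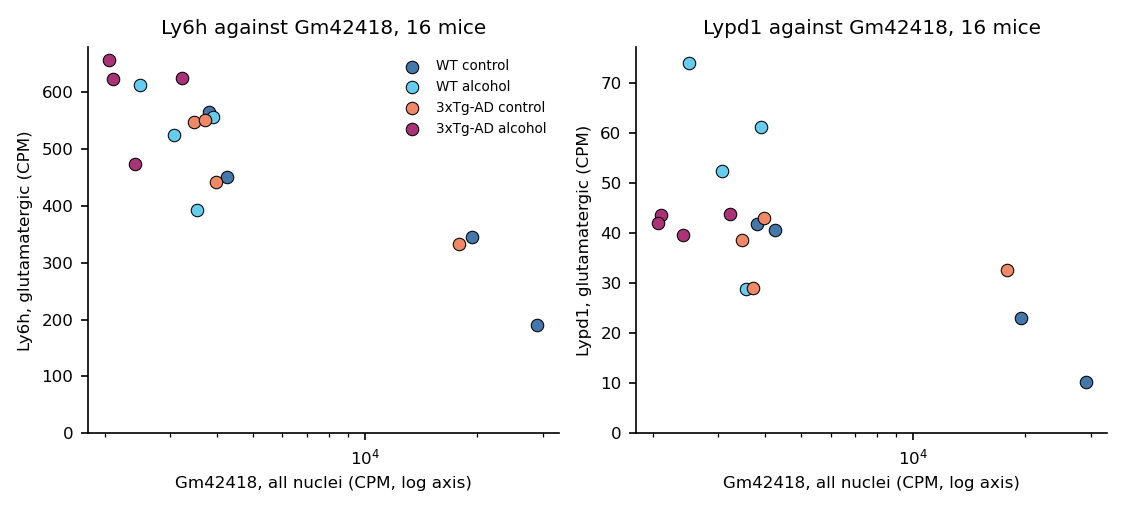
Level of Ly6h and Lypd1 in glutamatergic nuclei (y axes, CPM) against Gm42418 in all nuclei (x axis, CPM, log axis) for the 16 mice, colored by group. The 3 mice to the right, all of them in air, hold the lowest levels of Ly6h (191 to 345 CPM).

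No member was called by edgeR between 3xTg-AD control and WT control mice (0.201% of all gene tests called). None was called between WT alcohol and WT control mice (0.0346%), between 3xTg-AD alcohol and 3xTg-AD control mice (0.23%) or for the interaction (0.00216%). At an unadjusted edgeR p under 0.05, 10, 18, 13 and 2 of the 69 pairs passed in that order. Of all 138579 gene tests, 9047, 12920, 12426 and 5730 passed so. The pairs are not independent, since types lie within classes and share mice. DESeq2 called 1 pair between WT alcohol and WT control mice.

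**Figure D5:**
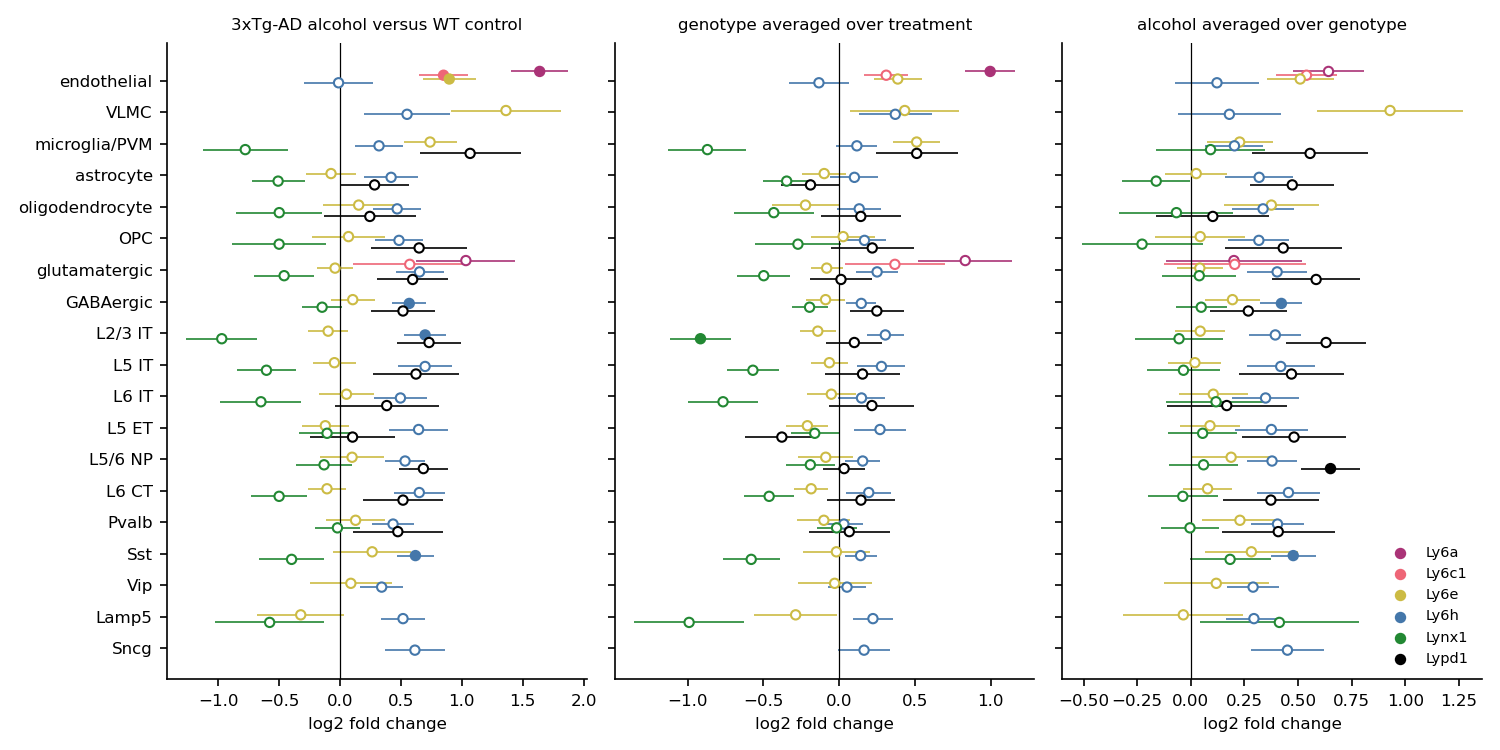
Log2 fold change (x axis) of each gene in each type in which it was tested (y axis) for 3 contrasts, with lines for 1 SE and filled points for an edgeR adjusted p of at most 0.05. Filled points for 3xTg-AD alcohol against WT control are Ly6a, Ly6c1 and Ly6e in endothelial-like nuclei and Ly6h in GABAergic, L2/3 IT and Sst nuclei.

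Of 40 further Ly6/uPAR genes listed, 14 were in the table, 4 exceeded 10 CPM in a type and the same 4 were tested in at least 1 type. Lypd6 (64.8 ± 21.1 CPM) and Lypd6b (40.0 ± 18.6 CPM), relatives that also bind nicotinic receptors, were highest in Sst interneurons, and none of their tests was called. Ly6g6e was highest in L6b nuclei (10.02 ± 8.03 CPM), and none of its 8 tests was called. Cd59a, an inhibitor of complement lysis, was highest in endothelial-like nuclei (78.7 ± 36.4 CPM), and higher in 3xTg-AD than in WT mice in glutamatergic nuclei (log2 fold change 1.36 ± 0.17, edgeR adjusted p = 0.000145, 2.91% of genes called) and in GABAergic nuclei (1.51 ± 0.31, adjusted p = 0.00519, 1.7% of genes called). Both were still called without the 3 mice high in Gm42418 (1.25 ± 0.19, adjusted p = 0.00116, and 1.63 ± 0.36, adjusted p = 0.00771). Its glutamatergic means were 3.26 ± 1.76 CPM in WT control, 6.06 ± 2.02 CPM in WT alcohol, 11.8 ± 2.76 CPM in 3xTg-AD control and 11.1 ± 0.72 CPM in 3xTg-AD alcohol mice (SD, n = 4). The part of RNA from other cells in these neuronal counts was not tested.

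Among nicotinic acetylcholine receptor subunits, the partners of Lynx1, Ly6h and Lypd1, 10 of 13 listed were in the table and 6 were tested. Chrna4 was highest in Vip (53.1 ± 26.3 CPM), Chrnb2 in L5/6 NP (38.8 ± 15.6 CPM), Chrna7 in Lamp5 (21.8 ± 16.7 CPM) and Chrna5 in L5/6 NP nuclei (16.4 ± 11.8 CPM), and no test of these 4 was called. Chrna2 was lower in glutamatergic nuclei of 3xTg-AD alcohol than of WT control mice (-1.54 ± 0.38, edgeR adjusted p = 0.0324), where 3.72% of genes were called. Its means were 0.84 ± 0.32 and 2.46 ± 1.22 CPM, near the level at which Ly6a (0.859 CPM) and Ly6c1 (1.91 CPM) were counted in these nuclei, so that no expression is read from it, and it was not called without the 3 mice high in Gm42418 (adjusted p = 0.0596) or without 3xTg-AD alcohol mouse 34 (0.0783). Of 29 genes that build or attach the GPI anchor, all tested in glutamatergic nuclei, 22 lay above 0 between those groups, with no call by edgeR. Their median log2 fold change was 0.15, against 0.004 over all 15280 genes tested. The share of all genes above 0 was not taken, so that the 22 are a description. Averaged over treatment 1 of the 29 was called, Mppe1, which trims the anchor (-0.30 ± 0.07, adjusted p = 0.0315), where 2.91% of all genes tested were called, so that nothing is read from this count. Its adjusted p was 0.105 without the 3 mice high in Gm42418 and 0.0597 without 3xTg-AD alcohol mouse 34.

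Of 57 other genes in the table within 1000000 bases of the chromosome 15 span, 6 were tested in endothelial-like nuclei, and none of these 6 was called in any of the 8 contrasts by edgeR. In the comparison of 3xTg-AD alcohol with WT control mice their median log2 fold change was 0.15, against 0.01 over all 1967 genes tested in these nuclei. In glutamatergic nuclei, where 41 were tested, Plec, a cytoskeletal linker, was lower in 3xTg-AD alcohol than in WT control mice (-0.44 ± 0.12, adjusted p = 0.0419, 3.72% of genes called), and Pycrl, an enzyme of proline synthesis, was higher in alcohol than in air mice (0.53 ± 0.13, adjusted p = 0.0314, 3.06% of genes called). In L2/3 IT nuclei, where 33 were tested, Pycrl (1.02 ± 0.24, adjusted p = 0.0179) and Plec (-0.51 ± 0.12, adjusted p = 0.0234) were called between 3xTg-AD alcohol and WT control mice, where 3.09% of genes were called, and Pycrl between alcohol and air mice (0.64 ± 0.17, adjusted p = 0.0399, 2.01% of genes called). Arc, an immediate early gene of synaptic activity, was lower in astrocyte-like nuclei of alcohol mice (-1.01 ± 0.24, adjusted p = 0.0225, 0.752% of genes called). The 7 glutamatergic markers summed to 2408 CPM in astrocyte-like nuclei and 2445 CPM in glutamatergic nuclei. The part of neuronal RNA in this count of Arc was not tested. Without the 3 mice high in Gm42418, Plec in glutamatergic nuclei (-0.43 ± 0.12, edgeR adjusted p = 0.065) and Arc (-1.03 ± 0.28, adjusted p = 0.0767) were not called. The calls of Pycrl and that of Plec in L2/3 IT nuclei passed without those mice (0.00526 to 0.0324). Without 3xTg-AD alcohol mouse 34, Plec in glutamatergic nuclei was not called either (-0.46 ± 0.13, adjusted p = 0.0788). In L2/3 IT nuclei Plec (0.0501) and Pycrl between alcohol and air mice (0.0636) were not called without 3xTg-AD alcohol mouse 34.

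One glutamatergic cluster was led by interferon-induced genes. Of its 126 nuclei, 123 were kept in the glutamatergic class, and 101 of these came from 3xTg-AD alcohol mouse 34, so that it has no replicate check. In these 101 nuclei Ly6e was at 110 CPM (exact Poisson 95% interval 79.7 to 148, counting error only) against 89.9 CPM (83.4 to 96.8) in the other glutamatergic nuclei of that mouse, and Ly6h at 474 CPM (408 to 547) against 473 CPM (458 to 488). The 22 nuclei of the cluster from other mice held 1 UMI of Ly6e (19.4 CPM, 0.491 to 108). In the cluster's nuclei from mouse 34, Ly6a had 0 UMIs (interval 0 to 9.44 CPM). The other glutamatergic nuclei of that mouse were at 1.91 CPM (1.07 to 3.15), within that interval, so that no absence is read from the 0. The calls between 3xTg-AD alcohol and WT control mice were the same 6 without this cluster.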

How the data were processed

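Nuclei from the medial prefrontal cortex of 16 mice were profiled with a droplet 3′ method. The authors processed reads with Cell Ranger 6.1.1 (STAR, mm10) and deposited 1 table of raw counts of UMIs per gene and nucleus, whose genes were each found in at least 5 nuclei of any mouse that had them. Their cell annotation was not used here, so class names are rebuilt. The members and gene lists were chosen with earlier results of these data known.

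Nuclei were clustered (scanpy 1.11.5, leidenalg 0.10.2, 2000 variable genes, 30 components, resolution 1.5) without the family's genes and named from markers. A doublet caller marked 0.425% of nuclei and so had not worked, and no doublets were removed. CPM is a count per 1000000 UMIs of a class and mouse, a class total that was 38661 to 131927 UMIs in endothelial-like nuclei. Libraries held 9622031 UMIs or more. Counts were summed per mouse and class with at least 10 nuclei, in at least 3 mice per group, filtered (filterByExpr), TMM-scaled and fitted with edgeR 4.0.16 (quasi-likelihood, R 4.3.3), 4 group means, Benjamini-Hochberg within a class and contrast. The fit was tested on simulated data. SE is the log2 fold change divided by the root of F. "Within 1 SD" compares neighbouring means with the larger of their SDs. All 6 members are named, with the 3 genes most like each, up to 5 genes per list with the smallest adjusted p among those called in 3xTg-AD alcohol against WT control mice or by genotype, family and nicotinic genes above 10 CPM in a type, and called genes near the chromosome 15 span. Nothing in the labels says more of the replicates than that they are separate mice. Alternatives were DESeq2 1.42.0, other filters, left-out mice, a covariate for rRNA-associated transcripts and classes by marker counts. Leaving out the interferon-led cluster, leaving out 3xTg-AD alcohol mouse 34 for genes other than the members, and the share of genes without overlap between alcohol and air mice were added after the values had been seen.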

Additional observations from a re-analysis of the deposited data

Results flagged for a closer look

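In 3 of 56 groups of 4 mice, 1 mouse lay apart from the other 3 by Dixon's test at 95%, where chance alone gives about 1 in 20. Ly6h in endothelial-like nuclei was at 159.2 CPM in WT control mouse 26, against 349.8 to 385.6 CPM in the other WT control mice. Lynx1 in glutamatergic nuclei was at 70.05 CPM in WT control mouse 27, against 90.88 to 93.57 CPM. Ly6a in glutamatergic nuclei was at 0.676 CPM in 3xTg-AD alcohol mouse 33, against 1.624 to 1.817 CPM.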

How the results depend on the processing

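The number of the 69 pairs called between 3xTg-AD alcohol and WT control mice (6) was 8 with DESeq2, which added Ly6h in glutamatergic and Lynx1 in L2/3 IT nuclei. It fell to 1 with the rRNA-associated covariate, to 1 without the 3 mice high in Gm42418 and to 2 with classes by marker counts, and was 2 to 10 with 1 mouse left out. For WT alcohol against WT control mice (0) it was 1 with DESeq2, 1 without a filter on low counts, and 0 to 1 with 1 mouse left out. For 3xTg-AD alcohol against WT alcohol mice (1) it was 2 with DESeq2, 0 with marker classes and 1 to 2 with 1 mouse left out, and against 3xTg-AD control mice (0) it was 0 to 1. For genotype (2) it was 5 without a filter, 1 with the covariate, 1 without the 3 mice, 1 with marker classes and 1 to 6 with 1 mouse left out. For alcohol (3) it was 6 with DESeq2, 5 without a filter, 0 with the covariate, 1 without the 3 mice and 2 to 8 with 1 mouse left out. The interaction, and 3xTg-AD control against WT control mice, stayed at 0 with 1 mouse left out. With marker classes the mean log2 ratio of endothelial-like over glutamatergic nuclei was 8.12 for Ly6a (9.37 by cluster), 8.25 for Ly6c1 (9.71 by cluster) and 0.91 for Lypd1, which turned direction from -0.25. The cause of these changes was not tested. The number of all genes called also changed with the setting. In glutamatergic nuclei it was 569 for 3xTg-AD alcohol against WT control mice, 1001 with DESeq2 and 604 without the 3 mice. For alcohol averaged over genotype it was 468, 933 and 1147 in that order. In endothelial-like nuclei it was 22, 21 and 12 for 3xTg-AD alcohol against WT control mice. It is not given for the other settings, so that counts of pairs across settings are descriptions.

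Fold changes that turned direction were uncalled under each setting. With marker classes these were Ly6c1 (-0.018, alcohol) and Ly6e (-0.0508, genotype) in endothelial-like nuclei and Ly6c1 (-0.10) and Lypd1 (-0.0086) in glutamatergic nuclei (genotype). With the covariate they were Ly6h in endothelial-like nuclei (-0.24, alcohol) and, in glutamatergic nuclei, Ly6e (0.26 in 3xTg-AD alcohol against WT control mice, 0.020 for genotype) and Lypd1 (-0.11, genotype). Without the 3 mice the same 4 were at -0.076, 0.20, 0.027 and -0.20. With 1 mouse left out, Ly6h in endothelial-like nuclei ran from -0.30 to 0.13 (3xTg-AD alcohol against WT control) and -0.016 to 0.23 (alcohol). In GABAergic nuclei Ly6e ran from -0.023 to 0.19 (3xTg-AD alcohol against WT control) and Lynx1 from -0.022 to 0.13 (alcohol). In glutamatergic nuclei Ly6c1 ran from -0.041 to 0.44 (alcohol), Ly6e from -0.12 to 0.13 (3xTg-AD alcohol against WT control), -0.13 to 0.0035 (genotype) and -0.015 to 0.13 (alcohol), Lynx1 from -0.084 to 0.14 (alcohol) and Lypd1 from -0.12 to 0.10 (genotype).

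No paired analysis was possible because the replicate numbers are mouse numbers that no 2 groups share. Endothelial-like nuclei numbered 21 to 69 per mouse, and 1967 genes were tested there, or 2649 without the 3 mice high in Gm42418.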
